A study of Mus musculus with 12 samples.

Results

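The contralateral (CL) kidneys of Acot12-/- mice were compared with those of Acot12+/+ mice. The comparison took 6 of the 12 RNA-seq libraries of the study, picked by their labels: 3 from CL kidney cortex of Acot12-/- mice and 3 from CL kidney cortex of Acot12+/+ mice, numbered 1 to 3 in each group. All of these mice were males, 6–7 weeks old according to the methods and on a C57BL/6 background (C57BL/6N in the methods). In all of them the ureter of the opposite kidney had been tied 7 days before the kidneys were taken (unilateral ureteral obstruction, UUO). A CL kidney is therefore the kidney that kept its open ureter in an operated mouse, and neither group holds a kidney from an unoperated mouse. The Acot12-/- mice carried a mutant allele made with an RNA-guided endonuclease (RGEN) and passed through the germline, so the mutation was present in every tissue and not in the kidney alone. No drug is named in the labels of these libraries. The hour of collection, the feeding state and whether the genotypes were littermates are not given in the sources used here. The other 6 libraries came from the UUO kidneys of the same genotypes and were used for the spread between replicates and for a comparison of the 2 kidneys.

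ACOT12 is a thioesterase of the cytosol that splits acetyl-CoA into acetate and CoA, and it is best known from liver and kidney. The renal cortex consists mainly of proximal tubule, which reabsorbs most of the filtrate and burns fatty acids to do so. Between the tubules lie glomeruli, a dense network of capillaries, arterioles with smooth muscle and renin cells, interstitial fibroblasts and resident macrophages, and RNA from cortex is a mixture of all of these.

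The mutated gene was examined first. Acot12 (plus strand, chr13:91741512-91786148, GRCm38) stood at 73.8, 52.7 and 78.1 FPKM (fragments per kilobase of transcript, relative to the fragments of the library) in the 3 Acot12+/+ CL libraries and at 9.14, 9.01 and 6.8 FPKM in the 3 Acot12-/- CL libraries. Values are given for replicates 1, 2 and 3 in turn throughout, Acot12+/+ first. Every Acot12-/- library lay below every Acot12+/+ library, and transcript was still counted in each of them. On log2(FPKM + 1), the scale of all fold changes here, the difference was −2.88 ± 0.27 (SE; n = 3 per group; adjusted p = 0.000875, limma) and −2.94 without Acot12-/- replicate 2. An exact two-sided permutation test of 3 against 3 libraries gave p = 0.1, the smallest value this design can reach. The reads behind a value cannot be placed along the gene in FPKM tables, so the values do not show which part of the transcript remained. Of the annotated genes starting within 1 Mb of Acot12, the 10 that were tested (among them Rps23, Atg10, Ssbp2, Zcchc9, Msh3 and Serinc5) were not called in the 6 libraries. Without replicate 2, Zfyve16 was called lower (−0.46 on the log2 scale, adjusted p = 0.0305), with 7.06, 7.04 and 7.16 FPKM in Acot12+/+ and 5.31, 8.79 and 4.5 FPKM in Acot12-/- kidneys.

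Acot12-/- CL replicate 2 stood apart from the other 5 libraries, and its values moved with the GC content of the genes. Relative to the Acot12+/+ CL mean, among 5 equal groups of genes the one with the lowest GC content (31.0–43.8%) had median log2 deviations of −0.15, 0.41 and −0.29 in Acot12-/- replicates 1, 2 and 3, and the one with the highest GC content (55.4–72.8%) had 0.20, −0.69 and 0.32. Replicates 1 and 3 thus leaned mildly one way and replicate 2 strongly the other way, while the 3 Acot12+/+ libraries stayed between −0.08 and 0.06 at both ends. Correlation of log2 values was 0.985 to 0.988 between Acot12+/+ CL libraries, 0.982 between Acot12-/- replicates 1 and 3, and 0.933 and 0.942 between replicate 2 and these. Depth, estimated from the steps between low FPKM values, was 11500000 to 12900000 fragments in Acot12+/+ and 13400000 to 14900000 in Acot12-/- CL libraries. Markers of renal cortex were abundant in all 6 libraries, with 620 to 2087 FPKM of Slc34a1 (proximal tubule phosphate transporter), 907 to 1985 of Umod (uromodulin of the thick ascending limb) and 28.5 to 37.9 of Podxl (podocalyxin of podocytes). Adrenal cortex markers summed to at most 1.336 FPKM, with Cyp11b1 and Cyp11b2 at 0 in every library, and adipocyte markers to at most 19.05 FPKM, in Acot12+/+ replicate 2.

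**Figure D1:**
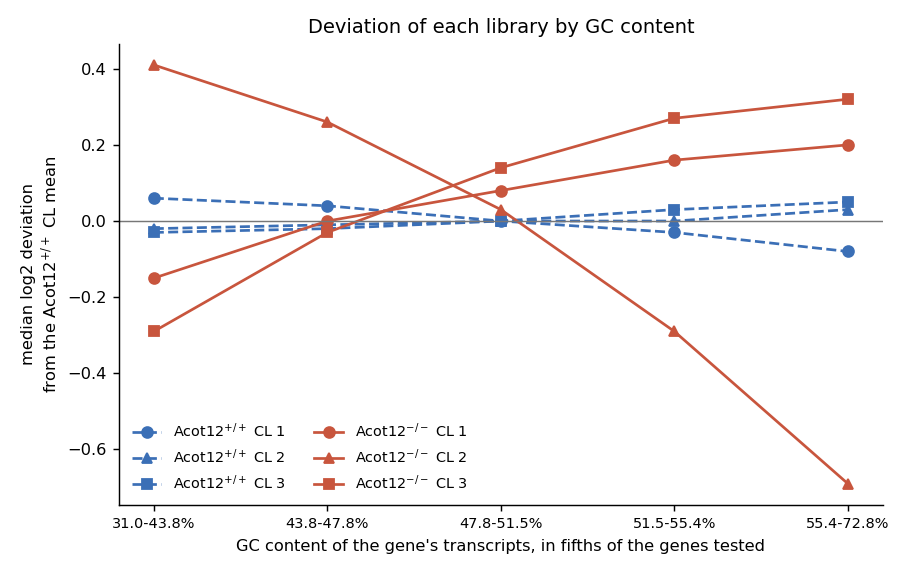
Median deviation of each CL library from the Acot12+/+ CL mean (y axis, log2 of FPKM + 1) over 5 equal groups of tested genes ordered by the GC content of their transcripts (x axis). Blue dashed lines are Acot12+/+ and orange solid lines Acot12-/- libraries, and the symbol gives the replicate. Acot12-/- replicate 2 (triangles) falls from 0.41 to −0.69 while replicates 1 and 3 rise to 0.20 and 0.32.

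Of 23183 genes listed, 12236 reached 1 FPKM in at least 3 of the 6 CL libraries, and 12224 of these were tested. At an adjusted p under 0.05, 568 genes (4.65% of those tested) were called between the genotypes: 152 were higher (1.24%) and 416 lower (3.4%) in Acot12-/- CL kidneys. At an unadjusted p under 0.05 there were 2068. Without Acot12-/- replicate 2 the count was 2885 (23.6%), of which 1575 were higher (12.9%) and 1310 lower (10.7%). All 568 genes were also among these 2885. With the GC trend of each library removed, 850 (6.99%) were called in 6 libraries, 285 higher (2.34%) and 565 lower (4.65%), and 1646 (13.5%) without replicate 2, 574 higher (4.72%) and 1072 lower (8.82%). The direction of the calls without replicate 2 followed the scaling: 45.4% of them were lower as deposited, 56.4% with median-ratio size factors, 56.3% with equal library totals and 65.1% with GC correction. Of the 568 genes, 480 (128 higher, 352 lower) were called with and without replicate 2 and with and without GC correction. The median log2 fold change of all genes tested was 0.03 with and 0.05 without replicate 2.

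These counts depended on which libraries set the spread. The fit drew on all 12 libraries, which left 8 residual degrees of freedom. With the 6 CL libraries alone, which leave 4, 5 genes were called: Acot12, Ccl5, Cyp2d12, Pf4 and Shank3 (the last 2 named after their values were seen), against 1349 at an unadjusted p under 0.05. The 12-library fit took a common spread for its 4 groups. Library weights, lower where a library spreads more, were 0.6, 0.08 and 0.35 for Acot12-/- CL replicates 1, 2 and 3. Acot12+/+ CL libraries weighed 1.07 to 1.63, and obstructed kidneys 1.21 to 3.84 (Acot12+/+) or 0.65 to 2.76 (Acot12-/-). The common spread may therefore understate the SE and adjusted p of the CL comparison, by an amount that was not tested. With library weights in the fit, 477 genes were called, and 329 of them were among the 568 (57.9% of the 568). Leaving out a single CL library gave 192 calls without Acot12+/+ replicate 1, 268 without replicate 2, 270 without replicate 3, 208 without Acot12-/- replicate 1 and 684 without Acot12-/- replicate 3. Of the 568 genes, 145 (25.5%) were called in each of 12 fits that left out 1 library, 19 of them higher and 126 lower. Groups that did not overlap, with every Acot12-/- library on one side of every Acot12+/+ library, were counted without a test: Acot12-/- kidneys lay below for 1027 genes (8.4%) and above for 1127 (9.22%).

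Endothelial genes were lower in Acot12-/- CL kidneys. Endothelium lines the renal arteries, glomerular tufts and peritubular capillaries, and 25 of 26 markers of it were tested. Of these 18 were called lower, beside 3.4% of all genes tested, and none higher. The median log2 fold change was −0.97 (0.03 over all genes), and all 25 had a negative sign, beside 46.4% of all genes. Summed over the list, FPKM were 438, 408 and 634 in Acot12+/+ and 154, 203 and 230 in Acot12-/- libraries, so that the highest Acot12-/- library was below the lowest Acot12+/+ library. For 22 of the 25 genes the Acot12-/- group lay wholly below, beside 8.4% of all genes. In bulk tissue fewer cells of a type and less RNA per cell cannot be told apart, which applies to every cell-type list below. Without replicate 2, 22 genes were called lower, beside 10.7% of all genes, with the same median of −0.97, and after GC correction 18 in 6 libraries and 23 without replicate 2. The count fell to 10 without Acot12+/+ replicate 1, to 8 without Acot12+/+ replicate 3 and to 8 without Acot12-/- replicate 1, with medians from −1.09 to −0.81 over all fits that left out a library. Fitted on the CL libraries alone, none was called in 6 libraries and 17 without replicate 2.

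Tie1, an angiopoietin co-receptor restricted to endothelium, had 7.96, 7.08 and 9.81 FPKM in Acot12+/+ and 3.13, 3.33 and 3.69 FPKM in Acot12-/- CL kidneys. The 3 Acot12-/- values were closely grouped (log2 fold change −1.07 ± 0.14, SE; adjusted p = 0.00291, and −1.07 without replicate 2). Plvap, which forms the diaphragms of fenestrated capillaries, went from 61.2, 51.2 and 80.4 to 18.5, 17.7 and 28.4 FPKM. For Plvap the groups lay apart, with a log2 difference of −1.54 ± 0.23 (SE, adjusted p = 0.00559) and of −1.42 (adjusted p = 0.00411) without replicate 2. Emcn, the sialomucin endomucin of capillary and venous endothelium, went from 62.9, 52 and 91.8 to 13.9, 31.7 and 22.8 FPKM. Emcn values did not overlap, at a log2 difference of −1.59 ± 0.28 (SE, adjusted p = 0.0101) and of −1.85 (adjusted p = 0.00224) without replicate 2. For Emcn replicate 2 was the highest of the Acot12-/- libraries, and its value still lay below the lowest Acot12+/+ value. Pecam1 (CD31, the junctional adhesion molecule used to stain vessels) fell from 15.8 ± 3.57 to 6.63 ± 1.72 FPKM (mean ± SD, n = 3), Cd34 from 15.1 ± 1.17 to 7.07 ± 2.12, and Igfbp3, a binding protein of insulin-like growth factors, from 99.4 ± 44.6 to 28.1 ± 6.33. Their adjusted p were 0.0109, 0.011 and 0.00949, and in all 3 genes the groups were separate. Tie1, Plvap, Emcn, Pecam1, Cd34, Igfbp3, Robo4 and Egfl7 kept their call in each of the 12 fits that left out a library. Flt1 (a VEGF receptor) lost it without Acot12+/+ replicate 3 or Acot12-/- replicate 1, Adgrl4 without these or Acot12+/+ replicate 1, Tek (the angiopoietin receptor) without any of 4 CL libraries and Ptprb in 9 of the 12 fits.

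The 7 endothelial genes that were not called in 6 libraries were Ehd3, Sox17, Kdr, Ramp2, Mmrn2, Nos3 and Cldn5. Kdr, the main VEGF receptor, had 3.67, 2.29 and 6.83 FPKM in Acot12+/+ and 1.51, 2.18 and 1.87 in Acot12-/- kidneys. Kdr values did not overlap and the gene was not called, with a log2 difference of −0.80 ± 0.25 (SE, adjusted p = 0.102) and of −0.88 (adjusted p = 0.0443) without replicate 2. Ehd3, a marker of glomerular endothelium, had 6.21, 4.83 and 7.74 against 3.55, 4.71 and 3.24 FPKM. Ehd3 values did not overlap and the gene was not called, with a log2 difference of −0.58 ± 0.16 (SE, adjusted p = 0.0714) and of −0.70 (adjusted p = 0.0102) without replicate 2. Both genes spread more widely between replicates than Tie1. Cldn5, the tight junction claudin of endothelium, had 9.26, 10.6 and 7.29 against 6.31, 3.31 and 15.4 FPKM, and Nos3, the endothelial nitric oxide synthase, 0.94, 1.66 and 1.66 against 0.875, 0.431 and 1.28. These groups overlapped, with adjusted p of 0.752 and 0.345; for Cldn5 Acot12-/- replicate 3 held the highest value of all 6 libraries.

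Fabp4 and Rgcc, which are abundant in microvessels of many tissues but not on this list, were lower too. Fabp4, a fatty acid-binding protein of adipocytes, capillary endothelium and macrophages, had 279, 258 and 307 FPKM in Acot12+/+ and 55.9, 102 and 66.2 FPKM in Acot12-/- CL kidneys. The groups were far apart (log2 fold change −1.94 ± 0.23 (SE), adjusted p = 0.00238, and −2.19 (adjusted p = 0.00051) without replicate 2), and the call held in each of the 12 fits. Rgcc, a regulator of the cell cycle chosen after its values were seen, had 34.6, 29.4 and 34 against 7.24, 12.2 and 11.2 FPKM. Rgcc values did not overlap, at a log2 difference of −1.61 ± 0.21 (SE, adjusted p = 0.00297) and of −1.75 (adjusted p = 0.00137) without replicate 2.

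**Figure D2:**
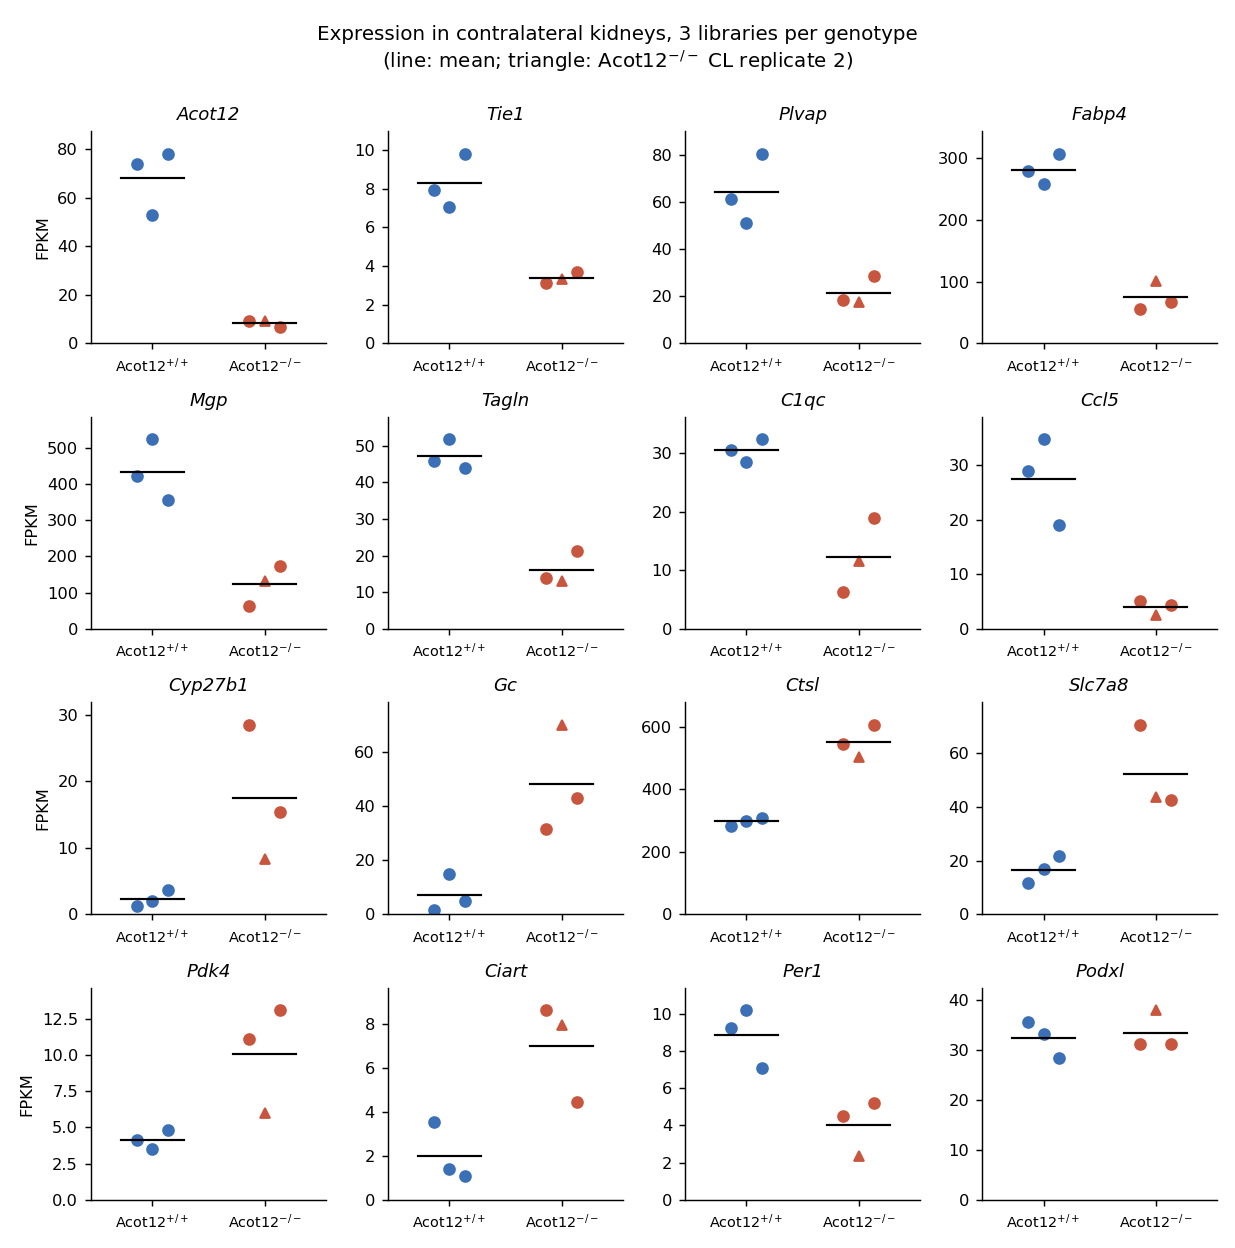
FPKM of 16 genes in each CL library (y axis, linear from 0), with Acot12+/+ in blue on the left and Acot12-/- in orange on the right of each panel; lines are group means and triangles mark Acot12-/- replicate 2. Acot12, Tie1, Plvap, Fabp4, Mgp, Tagln, C1qc, Ccl5 and Per1 were lower in all 3 Acot12-/- libraries, Cyp27b1, Gc, Ctsl, Slc7a8, Pdk4 and Ciart were higher in all 3, and the groups overlapped for Podxl.

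Markers of mural cells, the smooth muscle, pericyte, mesangial and renin cells around these vessels, were lower in part. Of 12 markers, 4 were called lower (3.4% of all genes were) and none higher, with a median of −0.68. A negative sign was seen for 11 of the 12 (46.4% of all genes had one). The Acot12-/- group lay wholly below for 6 (8.4% of all genes). Summed FPKM were 120, 126 and 108 in Acot12+/+ and 51.4, 54.4 and 66.5 in Acot12-/- libraries. Without replicate 2, 6 were called lower (10.7% of all genes) and Cspg4 higher, with a median of −0.75. Tagln (transgelin, an actin-binding protein of smooth muscle) had 45.9, 51.8 and 43.9 FPKM in Acot12+/+ and 13.8, 13 and 21.1 in Acot12-/- kidneys. Tagln was lower in each Acot12-/- library, with a log2 difference of −1.53 ± 0.19 (SE, adjusted p = 0.0025) and of −1.41 (adjusted p = 0.00178) without replicate 2. Pdgfrb, the PDGF receptor of pericytes and mesangium, had 8.1, 8.21 and 8.33 against 2.93, 2.67 and 4.41 FPKM. For Pdgfrb the groups lay apart, with a log2 difference of −1.11 ± 0.18 (SE, adjusted p = 0.00821) and of −1.0 (adjusted p = 0.00584) without replicate 2. Both genes were nearly constant among the Acot12+/+ kidneys and stayed called in each of the 12 fits. Des and Notch3 were the other 2 genes called, and Des lost its call without Acot12+/+ replicate 3 or Acot12-/- replicate 1, Notch3 in 10 of the 12 fits. Notch3 passed the filter through the Acot12+/+ group alone. The contractile genes Acta2 (18.9, 21.4 and 10.6 against 11.2, 11.2 and 16.7 FPKM) and Myh11 (3.28, 4.34 and 1.54 against 2.47, 2.21 and 2.06) overlapped between the groups, with adjusted p of 0.563 and 0.703. Ren1, renin, had 16.3, 11.2 and 14 FPKM in Acot12+/+ and 4.04, 7.21 and 5.64 FPKM in Acot12-/- kidneys. Ren1 values did not overlap and the gene was not called, with a log2 difference of −1.18 ± 0.48 (SE, adjusted p = 0.227). The list counted 2 calls without Acot12+/+ replicate 3 and 2 without Acot12-/- replicate 1.

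Fibroblast and matrix genes, whose products build the interstitium, were lower in part. Of 16 genes 7 were called lower (3.4% of all genes were) and none higher, all 16 had a negative sign (46.4% of all genes had), and the median was −0.94. Summed FPKM were 703, 797 and 596 in Acot12+/+ and 158, 315 and 311 in Acot12-/- libraries. Mgp (matrix Gla protein, an inhibitor of calcification) had the largest share of these sums, with 423, 523 and 355 FPKM in Acot12+/+ and 62.5, 133 and 174 in Acot12-/- kidneys. Mgp was lower in each Acot12-/- library, with a log2 difference of −1.91 ± 0.32 (SE, adjusted p = 0.00821) and of −2.02 (adjusted p = 0.00501) without replicate 2. Col6a1, a chain of collagen VI, had 6.58, 6.57 and 7.68 against 2.14, 3.17 and 3.13 FPKM. For Col6a1 the groups lay apart, with a log2 difference of −1.07 ± 0.16 (SE, adjusted p = 0.00576) and of −1.14 (adjusted p = 0.00245) without replicate 2. Both kept their call in each of the 12 fits, and for both the lowest Acot12-/- value was that of replicate 1. Fn1, Thy1, Fbln5, Col3a1 and Col1a2 were called as well, Col1a2 at an adjusted p of 0.0498. Col1a1, a chain of collagen I, had 17.2, 18.6 and 12.2 FPKM in Acot12+/+ and 6.62, 7.85 and 11.5 FPKM in Acot12-/- kidneys. Col1a1 values did not overlap and the gene was not called, with a log2 difference of −0.82 ± 0.22 (SE, adjusted p = 0.056) and of −0.78 (adjusted p = 0.0392) without replicate 2. Decorin (Dcn), a proteoglycan of connective tissue, depended on replicate 2, with 53.5, 40.1 and 47.4 FPKM in Acot12+/+ and 8.65, 38.3 and 13.7 in Acot12-/- libraries. Dcn values did not overlap and the gene was not called, with a log2 difference of −1.43 ± 0.40 (SE, adjusted p = 0.0647) and of −2.0 (adjusted p = 0.00127) without replicate 2. Replicate 2 lay close to the Acot12+/+ values and the other 2 libraries far below them. Without replicate 2 the list gave 12 calls and a median of −1.10. It gave 2 without Acot12+/+ replicate 1 or Acot12-/- replicate 1 and 4 without any of 7 others (Acot12+/+ CL replicates 2 and 3, Acot12+/+ UUO replicates 1 and 2, and each Acot12-/- UUO replicate).

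Macrophage and monocyte markers followed the same direction with more spread among the Acot12-/- kidneys. Of 15 genes tested, 6 were called lower (3.4% of all genes were) and none higher, with a median of −1.03, and 13 without replicate 2 (10.7% of all genes) with a median of −1.13. Their summed FPKM were 408, 403 and 412 in Acot12+/+ and 145, 182 and 273 in Acot12-/- libraries. C1qc, a chain of the complement component C1q that resident macrophages make, had 30.5, 28.5 and 32.4 FPKM in Acot12+/+ and 6.25, 11.7 and 18.9 FPKM in Acot12-/- kidneys. For C1qc the groups lay apart, with a log2 difference of −1.36 ± 0.30 (SE, adjusted p = 0.0253) and of −1.39 (adjusted p = 0.0176) without replicate 2. Cd74, the invariant chain of MHC class II, had 183, 203 and 203 against 83.1, 79.3 and 133 FPKM. Cd74 values did not overlap, at a log2 difference of −1.03 ± 0.20 (SE, adjusted p = 0.0137) and of −0.89 (adjusted p = 0.0104) without replicate 2. In both genes the Acot12+/+ kidneys were nearly equal, whereas the Acot12-/- kidneys spread widely below them. Ly6c2, a surface antigen of inflammatory monocytes, had the largest fall of the list, from 10.1, 6.47 and 6.43 to 0.82, 1.69 and 1.85 FPKM. Ly6c2 was lower in each Acot12-/- library, with a log2 difference of −1.82 ± 0.23 (SE, adjusted p = 0.0025) and of −1.90 (adjusted p = 0.00189) without replicate 2. It was the member that kept its call in each of the 12 fits. Lyz2, C1qa and Cd68 were the others called. Adgre1, the F4/80 antigen, had 3.47, 2.09 and 2.57 against 0.665, 2.68 and 1.14 FPKM. Adgre1 values overlapped between the groups, with a log2 difference of −0.64 ± 0.25 (SE, adjusted p = 0.213) and of −0.96 (adjusted p = 0.00695) without replicate 2. Ccl2, a chemokine that draws in monocytes, had 3.5, 3.71 and 2.53 against 0.93, 1.34 and 2.05 FPKM. Ccl2 values did not overlap and the gene was not called, with a log2 difference of −0.81 ± 0.21 (SE, adjusted p = 0.0503) and of −0.80 (adjusted p = 0.0329) without replicate 2. The number called was 1 without Acot12+/+ replicate 1, 1 without Acot12+/+ replicate 3, 1 without Acot12-/- replicate 1 and 3 without Acot12+/+ replicate 2.

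Lymphocyte genes were lower, and their calls did not depend on a single library. Of 8 markers tested, 5 (Ccl5, Nkg7, Cd3d, Cd3g and Lck) were called lower in 6 libraries, without replicate 2, with GC correction and in each of the 12 fits that leave out 1 library, and the median was −1.18. Cd3d and Lck reached 1 FPKM in Acot12+/+ libraries alone, so they passed the filter only through the group where they were higher. The shares of all genes called lower were 3.4% in 6 libraries and 10.7% without replicate 2, and 4.65% and 8.82% in the same order after GC correction. With the CL libraries fitted alone 1 of them was called, and 5 when replicate 2 was left out as well. Ccl5, a chemokine made by T cells and natural killer cells, had 28.9, 34.8 and 19 FPKM in Acot12+/+ and 5.12, 2.56 and 4.4 in Acot12-/- CL kidneys. Ccl5 was lower in each Acot12-/- library, with a log2 difference of −2.5 ± 0.31 (SE, adjusted p = 0.0025) and of −2.27 (adjusted p = 0.0024) without replicate 2. Nkg7, a granule protein of cytotoxic lymphocytes, had 5.25, 5.21 and 3.21 against 1.03, 0.221 and 0.427 FPKM. For Nkg7 the groups lay apart, with a log2 difference of −1.84 ± 0.29 (SE, adjusted p = 0.00653) and of −1.68 (adjusted p = 0.00624) without replicate 2. Both are products of cytotoxic lymphocytes. Cd3d, a chain of the T cell receptor complex, had 2.71, 2.96 and 1.8 against 0.425, 0 and 0.168 FPKM, and Cd3g of the same complex 4.43, 4.84 and 3.1 against 0.422, 1.08 and 1.49 FPKM. No Acot12-/- value of these 4 genes reached an Acot12+/+ value, although Cd3d and Nkg7 stood near the detection limit in Acot12-/- libraries, where 1 fragment on a 1-kb transcript was worth 0.0671 to 0.0749 FPKM. Hcst, an adaptor of activating receptors on natural killer and T cells, fell with them from 8.62, 7.79 and 6.06 to 2.19, 0.523 and 2.09 FPKM. Hcst values did not overlap, at a log2 difference of −1.77 ± 0.25 (SE, adjusted p = 0.00485) and of −1.42 (adjusted p = 0.00107) without replicate 2. The 3 markers that were not called were Cd8a (−0.31 on the log2 scale), Cd79b of B cells (−0.49) and the immunoglobulin chain gene Jchain (0.5). Another 8 were not tested, among them Cd3e, Cd4, Cd2, Ms4a1, Cd79a, Ighm and Gzmb. The Gimap GTPases, expressed in lymphocytes and endothelium and added as a list after the data had been seen, were called lower for 7 of 8 genes (median −1.02; 7 of 8 and −1.05 without replicate 2; 5 to 7 over fits that left out a library), beside 3.4% of all genes and 10.7% without replicate 2. Gimap4 had 39, 40.8 and 54.4 FPKM in Acot12+/+ and 9.19, 24.1 and 13.2 FPKM in Acot12-/- kidneys, a separation without overlap. Gimap9, at 10.5, 10.9 and 14.3 against 11.5, 16.5 and 15.1 FPKM, was the exception. For Gimap9 the groups overlapped, with a log2 difference of 0.25 ± 0.17 (SE, adjusted p = 0.526).

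The epithelial lists gave few calls. None of 11 podocyte markers was called in either direction in 6 libraries, without replicate 2 or after GC correction (medians 0.05 and 0.10), and 1 was lower without Acot12+/+ replicate 2. Podxl had 35.7, 33.2 and 28.5 FPKM in Acot12+/+ and 31.2, 37.9 and 31.2 in Acot12-/- kidneys. Of 22 proximal tubule markers none was called in 6 libraries and 2 were called higher without replicate 2, beside 12.9% of all genes, with medians of 0.42 and 0.63. Thick ascending limb (7 genes), collecting duct principal cell (8) and intercalated cell markers (10) had no call with or without replicate 2. Their medians were −0.27, −0.06 and 0.01 in 6 libraries and −0.46, 0.29 and 0.07 without replicate 2. Of 8 distal convoluted and connecting tubule markers, Pvalb (parvalbumin) was called lower, beside 3.4% of all genes, from 127, 119 and 92 to 56.8, 64.3 and 76.3 FPKM. For Pvalb the groups lay apart, with a log2 difference of −0.77 ± 0.15 (SE, adjusted p = 0.0155) and of −0.76 (adjusted p = 0.00873) without replicate 2. That call was lost without Acot12+/+ replicate 1 or 2 or Acot12-/- replicate 1. Among 11 injured tubule markers none was called in 6 libraries, and without replicate 2 Krt8 was called higher and Vcam1 lower, beside 12.9% and 10.7% of all genes. Haemoglobin transcripts varied widely between libraries, and Hba-a1 had 62.5, 632 and 220 FPKM in Acot12+/+ and 22.5, 3.82 and 76.9 in Acot12-/- kidneys. For Hba-a1 the groups overlapped, with a log2 difference of −3.33 ± 0.94 (SE, adjusted p = 0.0688). The library with the most Hba-a1, Acot12+/+ replicate 2, had the smallest endothelial and macrophage sums of the Acot12+/+ kidneys. It also had the largest lymphocyte, fibroblast and mural sums of these kidneys. The part of blood left in the tissue in the vascular and immune differences was not tested.

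**Figure D3:**
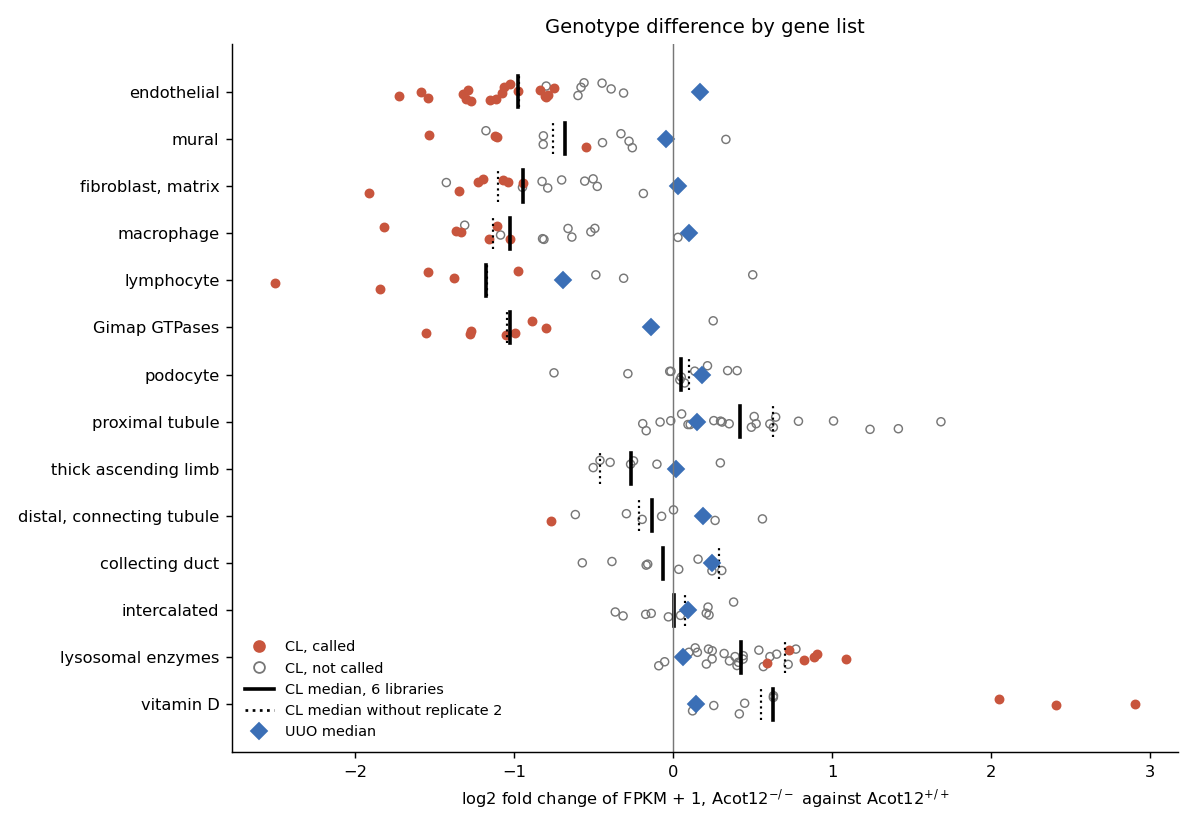
Log2 fold change of FPKM + 1 (x axis, Acot12-/- against Acot12+/+) for every tested member of 14 gene lists (y axis) in CL kidneys. Filled points were called and open points were not; solid bars are CL medians in 6 libraries, dotted bars medians without Acot12-/- replicate 2 and blue diamonds UUO medians. Endothelial, fibroblast, macrophage, lymphocyte and Gimap medians lie between −1.18 and −0.94, whereas podocyte, collecting duct and intercalated medians in 6 libraries lie near 0.

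The genes called higher included 3 of vitamin D metabolism. The proximal tubule takes up vitamin D bound to its plasma carrier through megalin and cubilin, activates it with CYP27B1 and inactivates it with CYP24A1. Cyp27b1 had 1.19, 1.96 and 3.69 FPKM in Acot12+/+ and 28.5, 8.37 and 15.4 FPKM in Acot12-/- CL kidneys. Replicate 2 had the smallest of the Acot12-/- values. Cyp27b1 was higher in each Acot12-/- library, with a log2 difference of 2.41 ± 0.37 (SE, adjusted p = 0.00593) and of 2.82 (adjusted p = 0.00121) without replicate 2. Gc, which encodes the vitamin D-binding protein, had 1.46, 15 and 5.09 against 31.6, 69.9 and 42.8 FPKM. For Gc the groups lay apart, with a log2 difference of 2.91 ± 0.52 (SE, adjusted p = 0.0109) and of 2.61 (adjusted p = 0.0115) without replicate 2. Cyp24a1 had 2.73, 4.21 and 12.4 against 19, 36.5 and 23.5 FPKM. Cyp24a1 values did not overlap, at a log2 difference of 2.05 ± 0.44 (SE, adjusted p = 0.0229) and of 1.80 (adjusted p = 0.0252) without replicate 2. For Gc and Cyp24a1 the Acot12+/+ kidneys differed among themselves several times over, and replicate 2 was the highest Acot12-/- library. The calls of Cyp27b1 and Gc held in each of the 12 fits, and that of Cyp24a1 was lost without Acot12+/+ replicate 1 or 2 or Acot12-/- replicate 1. The receptor Vdr (43.8, 39.3 and 52.3 against 56.3, 47.8 and 43.3 FPKM) and megalin, Lrp2 (118, 97.4 and 123 against 141, 162 and 106), overlapped between the groups. Cubn had a log2 fold change of 0.63 and Dab2 of 0.63, neither called. In total, 3 of the 9 genes of this list, which was drawn up after the data had been seen, were called higher (1.24% of all genes were) and none lower (median 0.63), and without replicate 2, 4 with Amn added (12.9% of all genes, median 0.55).

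Lysosomal enzymes, which degrade what the proximal tubule takes up, were higher in part. Of 28 genes on a list added after the data had been seen, 6 were called higher (among them Ctsl, Ctsb, Scpep1, Arsb and Lgmn), beside 1.24% of all genes, and none lower, with a median of 0.43. Ctsl, the protease cathepsin L, had 284, 299 and 310 FPKM in Acot12+/+ and 545, 503 and 607 FPKM in Acot12-/- kidneys. Ctsl was higher in each Acot12-/- library, with a log2 difference of 0.88 ± 0.16 (SE, adjusted p = 0.011) and of 0.95 (adjusted p = 0.0038) without replicate 2. Ctsb, cathepsin B, had 112, 123 and 128 against 200, 186 and 218 FPKM. For Ctsb the groups lay apart, with a log2 difference of 0.73 ± 0.14 (SE, adjusted p = 0.0146) and of 0.78 (adjusted p = 0.0037) without replicate 2. Within each genotype the values of both cathepsins stayed within a narrow band, and replicate 2 was the lowest of the Acot12-/- libraries while still above all of Acot12+/+. Ctsl lost its call without Acot12+/+ replicate 1, and Ctsb without Acot12+/+ replicate 1 or 2. Lgmn, legumain, had 288, 464 and 321 against 652, 587 and 1078 FPKM. Lgmn values did not overlap, at a log2 difference of 1.09 ± 0.27 (SE, adjusted p = 0.0385). Without replicate 2, 18 of the 28 were called higher with a median of 0.71, beside 12.9% of all genes. After GC correction 12 were called higher in 6 libraries (2.34% of all genes) and 13 without replicate 2 (4.72%), where 1 gene was called lower. No lysosomal gene was called without Acot12+/+ replicate 1, 2 were without Acot12+/+ replicate 2 or Acot12-/- replicate 1 and 3 without Acot12+/+ replicate 3. The medians of these fits stayed between 0.33 and 0.71.

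Transport and detoxification genes of the proximal tubule were higher in part. The 22 general proximal tubule markers given above had medians of 0.42 in 6 libraries and 0.63 without replicate 2. Of these markers 4 had a negative sign in 6 libraries, beside 46.4% of all genes. The part of a larger share of proximal tubule RNA in the rises of these lists and of lysosomal enzymes was not tested. Of 26 organic ion and amino acid transporters, 4 were called higher (Slc7a8, Slc7a9, Slc6a19 and Slc22a29) and none lower, with a median of 0.45, beside 1.24% of all genes called higher. Without replicate 2, 6 were called higher with a median of 0.52, beside 12.9% of all genes. Slc7a8, the basolateral exchanger of neutral amino acids, had 11.6, 16.8 and 21.7 FPKM in Acot12+/+ and 70.6, 43.6 and 42.8 FPKM in Acot12-/- kidneys. Slc7a8 was higher in each Acot12-/- library, with a log2 difference of 1.59 ± 0.27 (SE, adjusted p = 0.00838) and of 1.70 (adjusted p = 0.00463) without replicate 2. It kept its call in each of the 12 fits. The other 3 lost theirs in 7 to 9 of them, and the list gave 1 call without Acot12+/+ replicate 1 or 2, Acot12+/+ UUO replicate 1 or 2 or Acot12-/- replicate 1, and 2 without replicate 3 of Acot12+/+ CL, Acot12+/+ UUO or Acot12-/- UUO. Slc2a2 (GLUT2, which returns glucose to the blood) had 39.8, 46.7 and 58.9 against 85.2, 144 and 75.3 FPKM. For Slc2a2 the groups lay apart, with a log2 difference of 1.01 ± 0.25 (SE, adjusted p = 0.0435) and of 0.73 (adjusted p = 0.0308) without replicate 2. Slc5a2 (SGLT2, which takes glucose from the filtrate) had 15.9, 40.8 and 68 against 182, 58.7 and 147 FPKM. Slc5a2 values overlapped between the groups, with a log2 difference of 1.69 ± 0.54 (SE, adjusted p = 0.109) and of 2.17 (adjusted p = 0.0172) without replicate 2. Replicate 2 was the highest Acot12-/- library for Slc2a2 and the lowest for Slc5a2. Slc2a2 was the 1 gene called among 14 of gluconeogenesis and fructose metabolism, whose median was 0.50 (without replicate 2, 3 were called higher, beside 12.9% of all genes, and the median was 0.74). Its call was lost in 8 of the 12 fits.

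Of 23 cytochrome P450 and conjugation enzymes, 6 were called higher and 2 lower, with or without replicate 2 (medians 0.36 and 0.47). Of all genes 1.24% were called higher and 3.4% lower in 6 libraries, and 12.9% and 10.7% without replicate 2. The 6 were Cyp2d12, Cyp2d26, Ugt1a2, Gsta2 and 2 counted under vitamin D already, Cyp27b1 and Cyp24a1. After GC correction the 6 were called still, whereas 1 was called lower in 6 libraries and none without replicate 2. Cyp2d12 had 3.43, 3.55 and 3.01 FPKM in Acot12+/+ and 15.1, 12 and 14.9 in Acot12-/- kidneys, with little spread in either group. Cyp2d12 was higher in each Acot12-/- library, with a log2 difference of 1.79 ± 0.25 (SE, adjusted p = 0.0047) and of 1.88 (adjusted p = 0.00278) without replicate 2. With Acot12, Ccl5 and Pf4 it stayed called under each of the alternatives run for the 6 libraries. Cyp2d26 had 16.7, 27.9 and 39.9 against 138, 104 and 117 FPKM. For Cyp2d26 the groups lay apart, with a log2 difference of 2.12 ± 0.5 (SE, adjusted p = 0.0317) and of 2.22 (adjusted p = 0.0215) without replicate 2. That call was lost in 6 of the 12 fits. Ugt2b34, a glucuronosyltransferase outside the list, had 0.503, 5.39 and 5.5 against 15.6, 36.1 and 13.2 FPKM. Ugt2b34 values did not overlap, at a log2 difference of 2.38 ± 0.5 (SE, adjusted p = 0.02) and of 1.96 (adjusted p = 0.0221) without replicate 2. Ugt1a2 was listed at 0 in Acot12+/+ replicates 1 and 2 and at 0.315 FPKM in replicate 3, against 1.72, 5.45 and 1.47 FPKM in Acot12-/- kidneys. Ugt1a2 thus passed the filter through the Acot12-/- group alone. Ugt2b34 lost its call without Acot12-/- replicate 1 and Ugt1a2 without Acot12+/+ replicate 1. Ugt2b5 and Ugt2b37 of the same enzyme family were called lower, with log2 fold changes of −0.83 and −0.79. Genes of the Cyp2d, Ugt and Gsta families share long stretches of sequence, and how reads common to several of them were counted is not given in the sources used here. The number called higher was 2 without Acot12+/+ replicate 1, 3 without Acot12+/+ replicate 2 and 3 without Acot12-/- replicate 1. No gene was called lower without 7 of the 12 libraries (all of Acot12+/+ CL, Acot12-/- CL replicates 1 and 3, Acot12+/+ UUO replicate 2 and Acot12-/- UUO replicate 1), and 1 was called when Acot12+/+ UUO replicate 1, or Acot12-/- UUO replicate 2, or its replicate 3 was left out. Cyp4a12a, an omega-hydroxylase of fatty acids under androgen control in male kidney, fell from 128, 19.6 and 39.3 to 9.72, 7.35 and 9.6 FPKM. Cyp4a12a was lower in each Acot12-/- library, with a log2 difference of −2.27 ± 0.53 (SE, adjusted p = 0.0311) and of −2.16 (adjusted p = 0.03) without replicate 2. Its Acot12+/+ values covered a wide range, with replicate 1 the highest, and the Acot12-/- values were close together. That call was lost without Acot12+/+ replicate 1 or 3 or Acot12-/- replicate 1 or 3.

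A few genes of fatty acid use were called. PPARα is the receptor that switches on fatty acid oxidation in fasting. Of 22 genes on a list of it and its targets 2 were called higher and 1 lower (median 0.41), beside 1.24% and 3.4% of all genes. Without replicate 2 these numbers were 8 and 1 (median 0.52), beside 12.9% and 10.7%. Pdk4, the kinase that shuts off pyruvate dehydrogenase, had 4.17, 3.48 and 4.84 FPKM in Acot12+/+ and 11.1, 6.02 and 13.1 FPKM in Acot12-/- kidneys. For Pdk4 the groups lay apart, with a log2 difference of 1.05 ± 0.23 (SE, adjusted p = 0.0255) and of 1.35 (adjusted p = 0.00137) without replicate 2. Replicate 2 had the lowest of the 3 Acot12-/- values. Pdk4 lost its call in 5 of the 12 fits and after GC correction in 6 libraries (adjusted p = 0.0571). Ppara itself had 9.68, 11 and 10.7 against 19.1, 15.3 and 13.9 FPKM. Ppara values did not overlap and the gene was not called, with a log2 difference of 0.57 ± 0.20 (SE, adjusted p = 0.162) and of 0.60 (adjusted p = 0.0777) without replicate 2. Of 28 genes of mitochondrial fatty acid oxidation Acsl1, which couples long-chain fatty acids to CoA, was called higher in 6 libraries and 6 genes without replicate 2, beside 1.24% and 12.9% of all genes. Acsl1 had 40.3, 43.2 and 41 against 71.6, 73.1 and 55.1 FPKM. Acsl1 was higher in each Acot12-/- library, with a log2 difference of 0.66 ± 0.15 (SE, adjusted p = 0.0287). Cpt1a, the entry step into mitochondria, had 80.8, 82.1 and 83.2 against 125, 109 and 108 FPKM. Cpt1a values did not overlap and the gene was not called, with a log2 difference of 0.47 ± 0.14 (SE, adjusted p = 0.0764) and of 0.5 (adjusted p = 0.0151) without replicate 2. Of 35 peroxisomal enzymes and transporters Abcd4 (0.88) and Decr2 (0.77) were called higher, and 5 genes without replicate 2, beside 1.24% and 12.9% of all genes. Acsl1, Abcd4 and Decr2 lost their calls in 6 to 8 of the 12 fits.

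The genes next to acetyl-CoA itself gave few calls. ATP-citrate lyase makes cytosolic acetyl-CoA from citrate, acetyl-CoA carboxylase and fatty acid synthase use it, and Acss enzymes make it from acetate. Acly had 37.2, 46.7 and 37.9 FPKM in Acot12+/+ and 36.2, 38.3 and 46.5 FPKM in Acot12-/- kidneys, Fasn 7.63, 7.08 and 7.1 against 8.17, 3.63 and 8.9, and Acaca 2.27, 2.49 and 2.54 against 3.01, 2.12 and 3.52. These groups overlapped, with adjusted p of 0.985, 0.857 and 0.647. Acss1, the mitochondrial acetyl-CoA synthetase, had 39.8, 60.2 and 52 against 113, 90.8 and 85.6 FPKM. Acss1 values did not overlap and the gene was not called, with a log2 difference of 0.92 ± 0.25 (SE, adjusted p = 0.0624) and of 0.96 (adjusted p = 0.0333) without replicate 2. Across 27 genes of lipid synthesis, 1 was called higher (Elovl5, 0.61) and 1 lower (Thrsp), and without replicate 2, 9 were higher and 1 lower. The shares of all genes were 1.24% higher and 3.4% lower, and 12.9% and 10.7% without replicate 2. Thrsp, a regulator of lipogenesis, had 7.3, 8.18 and 10.3 against 0.993, 1.88 and 4.37 FPKM. Thrsp was lower in each Acot12-/- library, with a log2 difference of −1.60 ± 0.33 (SE, adjusted p = 0.0189) and of −1.54 (adjusted p = 0.0178) without replicate 2. Elovl5 lost its call in 10 of the 12 fits, and Thrsp in 4, without any of the 3 Acot12+/+ CL libraries or Acot12-/- CL replicate 1. Among the 12 acyl-CoA thioesterases tested, Acot12 was called in 6 libraries and Acot7 joined it, in the higher direction, without replicate 2, beside 12.9% of all genes called higher. Acot7 had 9.99, 9.74 and 10.5 against 17.5, 7.36 and 17.4 FPKM. For Acot7 the groups overlapped, with a log2 difference of 0.36 ± 0.25 (SE, adjusted p = 0.537) and of 0.74 (adjusted p = 0.00137) without replicate 2. Of 16 peroxins, the proteins that assemble peroxisomes, none was called in 6 libraries and 5 were called higher without replicate 2, beside 12.9% of all genes. Pex14, a receptor docking protein, had 25.3, 22.4 and 26.8 FPKM in Acot12+/+ and 39.2, 10.9 and 41.8 FPKM in Acot12-/- kidneys, with replicate 2 below and replicates 1 and 3 above Acot12+/+. Pex14 values overlapped between the groups, with a log2 difference of 0.08 ± 0.37 (SE, adjusted p = 0.947) and of 0.68 (adjusted p = 0.00636) without replicate 2. Of 27 genes on a list of those measured or cited in the study, 2 (Acot12 and Fabp4) were called lower, beside 3.4% of all genes, and none higher. Without replicate 2, Ccl2 and Col1a1 were also lower and Cpt1a and Plin2 higher, beside 10.7% and 12.9% of all genes, and 5 were lower without Acot12-/- replicate 3. That list was chosen with these samples in view and is not independent evidence of a direction.

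Circadian clock genes were called in both directions. The clock is a transcription loop in which ARNTL (BMAL1) and CLOCK drive Per, Cry and Ciart genes through E-boxes, and the Per and Cry proteins in turn repress them. DBP and TEF carry the rhythm to output genes of kidney and liver. To show where such boxes stand, promoter windows of 250 bases before to 50 after each RefSeq start (GRCm38.p6) were searched for CACGTG, a motif that reads the same on both strands. It was found in 5 of the 15 clock genes that have a window (Bhlhe41, Ciart, Cry1, Per1 and Tef), and in 7.2% of all 32851 windows. A gene counted if any of its windows held the motif, so genes and single windows are unlike units here. The stretches around the motif are given for Ciart and Per1, which were called in opposite directions, and for Tef, with the motif in capitals. Each is from the first window of the gene with a match. That of Ciart holds 3 copies, 116, 58 and 44 bases before the start (chr3:95882242-95882369, minus strand), that of Per1 1 copy 166 bases before (chr11:69098758-69098813, plus strand) and that of Tef 1 copy 127 bases before (chr15:81802521-81802576, plus strand).
Ciart: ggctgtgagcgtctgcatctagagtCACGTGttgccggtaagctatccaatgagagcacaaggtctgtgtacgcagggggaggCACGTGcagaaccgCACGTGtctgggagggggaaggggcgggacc
Per1: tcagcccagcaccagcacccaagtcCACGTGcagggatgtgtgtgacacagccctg
Tef: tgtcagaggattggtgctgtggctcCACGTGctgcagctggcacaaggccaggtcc
A match describes these letters and does not show that a protein binds there.

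Of 19 clock genes tested, 2 were called higher and 2 lower in Acot12-/- CL kidneys (median 0.49), beside 1.24% and 3.4% of all genes. Without replicate 2, 6 were called higher and 3 lower (median 0.44), beside 12.9% and 10.7%. Ciart, a repressor in the loop, had 3.52, 1.4 and 1.09 FPKM in Acot12+/+ and 8.61, 7.95 and 4.45 FPKM in Acot12-/- kidneys. Ciart was higher in each Acot12-/- library, with a log2 difference of 1.46 ± 0.28 (SE, adjusted p = 0.0131) and of 1.35 (adjusted p = 0.0137) without replicate 2. Cry2 had 1.98, 1.78 and 2.69 against 5.44, 3.93 and 4.25 FPKM. For Cry2 the groups lay apart, with a log2 difference of 0.82 ± 0.16 (SE, adjusted p = 0.0137) and of 0.90 (adjusted p = 0.00526) without replicate 2. Per1, by contrast, had 9.27, 10.2 and 7.12 against 4.52, 2.34 and 5.21 FPKM. Per1 values did not overlap, at a log2 difference of −1.01 ± 0.21 (SE, adjusted p = 0.02) and of −0.74 (adjusted p = 0.00747) without replicate 2. Arntl, its activator, had 2.09, 3.63 and 4.66 against 0.476, 0.883 and 1.77 FPKM. Arntl was lower in each Acot12-/- library, with a log2 difference of −1.13 ± 0.25 (SE, adjusted p = 0.0249) and of −1.10 (adjusted p = 0.0212) without replicate 2. Dbp, the output factor with the largest difference, had 24.7, 9.63 and 18.7 against 91.6, 35.4 and 43.8 FPKM. Dbp values did not overlap and the gene was not called, with a log2 difference of 1.60 ± 0.42 (SE, adjusted p = 0.0501) and of 1.88 (adjusted p = 0.0156) without replicate 2. Tef had 46.5, 32.5 and 43.2 against 85.4, 53.2 and 59.2 FPKM. Tef values did not overlap and the gene was not called, with a log2 difference of 0.67 ± 0.23 (SE, adjusted p = 0.141) and of 0.81 (adjusted p = 0.0326) without replicate 2. In the UUO kidneys the log2 fold changes were 1.5 for Dbp, −0.76 for Per1, 0.65 for Tef and 0.46 for Ciart, none of them called. Values of these genes did not overlap there either, with Dbp at 6.68, 3.56 and 8.46 against 28.2, 15.1 and 15 FPKM. Cry2 had 2.47, 2.05 and 1.84 against 3.54, 3.46 and 2.71 FPKM in UUO kidneys. Arntl had 2.77, 3.31 and 3.58 against 1.68, 2.32 and 1.56 FPKM. Both were separate without a call, and each of these genes kept its CL direction. The share of all genes without overlap in UUO kidneys was not counted. Of the clock calls in CL kidneys, Per1 was lost without Acot12+/+ replicate 1 or 2, Cry2 without these or Acot12-/- replicate 1, and Ciart and Arntl without Acot12+/+ replicate 2 or 3 or Acot12-/- replicate 1; none was lost without replicate 2.

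Immediate early and stress genes, which respond within minutes to flow, handling or injury, were lower for a few members. Of 23 immediate early genes 3 were called lower (Klf2, Ctgf and Rhob), beside 3.4% of all genes, and none higher, with a median of −0.43. Klf2, a transcription factor that endothelium makes under blood flow, had 14.3, 17.1 and 18.7 FPKM in Acot12+/+ and 4.13, 6.56 and 7.19 FPKM in Acot12-/- kidneys. Klf2 was lower in each Acot12-/- library, with a log2 difference of −1.37 ± 0.21 (SE, adjusted p = 0.00576) and of −1.44 (adjusted p = 0.00329) without replicate 2. Ctgf (CCN2, a matricellular growth factor) had 44.7, 49.7 and 66.5 against 13.7, 18.7 and 20 FPKM. For Ctgf the groups lay apart, with a log2 difference of −1.56 ± 0.30 (SE, adjusted p = 0.0131) and of −1.62 (adjusted p = 0.00905) without replicate 2. Klf2 kept its call in each of the 12 fits but not after GC correction (adjusted p = 0.0528), Ctgf lost it without Acot12+/+ replicate 3 or Acot12-/- replicate 1, and Rhob lost it in 10. Of the 3 calls, 1 was left without Acot12+/+ replicate 3 and 1 without Acot12-/- replicate 1. Of 13 glucocorticoid response genes Ddit4 and Per1 were called lower and Pdk4 higher, beside 3.4% and 1.24% of all genes, with a list median of −0.23. Ddit4, which damps growth signalling under stress, had 28.2, 31.8 and 15 against 7.71, 9.06 and 11.1 FPKM. Ddit4 values did not overlap, at a log2 difference of −1.29 ± 0.25 (SE, adjusted p = 0.0136) and of −1.28 (adjusted p = 0.0106) without replicate 2. This call was lost without Acot12+/+ replicate 1 or 2 or Acot12-/- replicate 1. Igfbp1, a secreted binding protein that rises in liver when insulin is low, was among the largest rises, from 2.89, 1.07 and 6.61 to 15.3, 10.7 and 15.4 FPKM. Igfbp1 was higher in each Acot12-/- library, with a log2 difference of 1.89 ± 0.35 (SE, adjusted p = 0.0119) and of 2.05 (adjusted p = 0.00684) without replicate 2. Its call was lost without Acot12-/- replicate 1. Interferon-stimulated genes varied between single kidneys instead. Summed over 28 genes, FPKM were 433, 448 and 562 in Acot12+/+ and 158, 673 and 556 in Acot12-/- libraries. None of 25 tested was called in 6 libraries (median 0.06), and 2 were lower without replicate 2, beside 10.7% of all genes.

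Many genes were called only when replicate 2 was left out. The counts below cover all calls of that fit, in which replicate 2 often pointed the other way. They include the 152 higher and 416 lower genes also called in 6 libraries, for all of which replicate 2 lay on the same side. Of the 1575 genes called higher without it, replicate 2 lay above all Acot12+/+ libraries in 423 (26.9%) and below all of them in 897 (57%). Of the 1310 called lower, it lay below all Acot12+/+ libraries in 647 (49.4%) and above them in 421 (32.1%). Over all genes tested replicate 2 was above in 38.8% and below in 41.1%. These calls also moved with GC content: from the lowest to the highest of the 5 GC groups, genes called higher numbered 38, 108, 289, 519 and 619, and genes called lower 551, 218, 157, 186 and 193. In the 6-library comparison the corresponding numbers were 12, 39, 60, 34 and 7 higher and 34, 42, 76, 108 and 156 lower. The part of GC content in the single calls was not tested gene by gene. Erdr1 is an example of a gene that turned on this library, with 4.37, 16.5 and 32.1 FPKM in Acot12+/+ and 103, 3.28 and 114 FPKM in Acot12-/- kidneys. For Erdr1 the groups overlapped, with a log2 difference of 1.35 ± 1.16 (SE, adjusted p = 0.641) and of 2.91 (adjusted p = 0.0347) without replicate 2. The Y-linked genes Eif2s3y, Ddx3y and Uty, whose transcripts are AT-rich, were called lower without replicate 2 (−1.27, −0.71 and −0.53) and not in 6 libraries, and 1 of the 3 was called after GC correction. All 6 libraries expressed them, as male mice do. Of 255 zinc finger genes with Zfp symbols, a list added after the data had been seen with a median GC content of 44.8%, 71 were called lower and 13 higher without replicate 2, beside 10.7% and 12.9% of all genes. In 6 libraries 3 were called lower and 1 higher, beside 3.4% and 1.24%. After GC correction 25 were called lower and 3 higher without replicate 2, beside 8.82% and 4.72%.

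The UUO kidneys were examined to see whether the genotype difference was shared by the obstructed side. In UUO kidneys 2 genes were called between the genotypes (0.0164%): Acot12 (log2 fold change −2.07, adjusted p = 0.0407) and Slc4a11, a membrane transporter gene named after its value was seen (−1.44, adjusted p = 0.0407). Both passed the threshold narrowly and had an adjusted p of 0.0775 in the fit without Acot12-/- CL replicate 2. Of the 152 genes called higher in CL kidneys 107 (70.4%) had a positive sign in UUO kidneys, with a median of 0.10 there, and of the 416 called lower 180 (43.3%) had a negative sign, with a median of 0.03. Over all genes tested the median in UUO kidneys was 0.0, and the share of each sign there was not counted. The endothelial median was 0.17 in UUO kidneys beside −0.97 in CL kidneys, the fibroblast median 0.03 beside −0.94, and the macrophage median 0.10 beside −1.03. Lymphocyte markers had a median of −0.69 in UUO kidneys beside −1.18. The difference between the 2 genotype effects was tested as an interaction and called for 18 genes (0.147%), all lower in Acot12-/- CL kidneys. They included Fabp4, Tie1, Rgcc, Arap3, Ushbp1, Shank3, Tmem204 and Arhgef15 and the myeloid genes Pf4, Fcgr3 and Stab1, most of them named after their values were seen. Of the 18, Shank3, Pdlim1 and Unc45b passed the filter through the Acot12+/+ group alone.

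Fabp4 in UUO kidneys had 210, 207 and 167 FPKM in Acot12+/+ and 199, 243 and 312 in Acot12-/- mice. These values overlapped, unlike those of the CL side, and the effects differed by 2.30 ± 0.33 on the log2 scale (SE; adjusted p = 0.0285). Tie1 had 7.82, 7.11 and 8.98 FPKM in Acot12+/+ and 9.58, 10.5 and 10.1 in Acot12-/- UUO kidneys, a difference of effects of 1.38 ± 0.20 (adjusted p = 0.0285). Pf4, platelet factor 4, had 30.7, 26.9 and 30.5 against 24.5, 32.5 and 21.9 FPKM there, with a difference of effects of 1.5 ± 0.23 (adjusted p = 0.0407). Without Acot12-/- CL replicate 2 the interaction was called for 962 genes (7.87%), including 17 of the 25 endothelial, 8 of the 16 fibroblast and 5 of the 15 macrophage genes but none of the lymphocyte genes. With each mouse as a block, which pairs its 2 kidneys, 96 genes were called, and in 91 of them the genotype effect was lower in CL than in UUO kidneys. The 18 calls also depended on single libraries. By limma, 0 were left (898 to 1151 at an unadjusted p under 0.05) without any of 9 single libraries (Acot12+/+ CL replicates 1, 2 and 3, Acot12+/+ UUO replicates 1, 2 and 3, Acot12-/- CL replicate 1 and Acot12-/- UUO replicate 2 or 3). There were 8 without Acot12-/- UUO replicate 1 and 170 without Acot12-/- CL replicate 3.

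**Figure D4:**
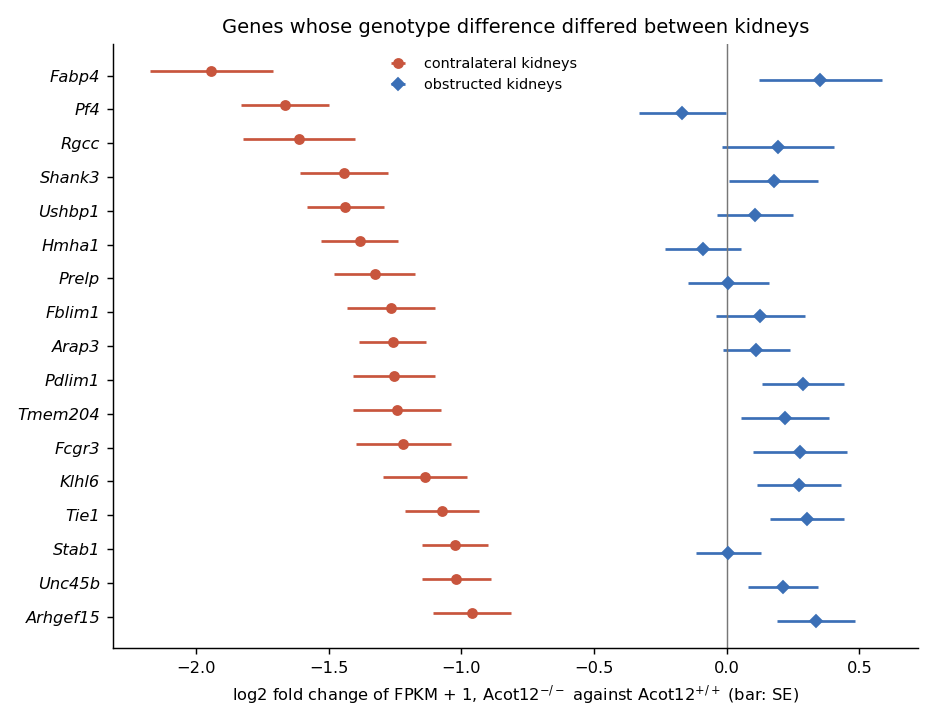
Log2 fold change of FPKM + 1 between the genotypes (x axis; bars are SE) in CL kidneys (orange circles) and UUO kidneys (blue diamonds) for 17 of the 18 genes called for a difference between the kidneys (y axis; the other has no gene name). CL values lie between −1.94 (Fabp4) and −0.96 (Arhgef15), and UUO values between −0.17 (Pf4) and 0.35 (Fabp4).

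Genes outside these lists completed the largest changes. Thus Agpat9 rose from 0.874, 4.79 and 3.39 to 7.7, 14 and 9.61 FPKM. Agpat9 values did not overlap, at a log2 difference of 1.62 ± 0.33 (SE, adjusted p = 0.0179) and of 1.41 (adjusted p = 0.0195) without replicate 2. Its call held in each of the 12 fits. Lypd2 fell from 17.5, 12 and 12.6 to 3.06, 1.77 and 5.79 FPKM (log2 fold change −1.81 ± 0.40 (SE), adjusted p = 0.0265), a call lost without any 1 of 4 CL libraries (all of Acot12+/+ and Acot12-/- replicate 1). Marcks, a substrate of protein kinase C, fell from 26.2, 24.8 and 32.8 to 4.3, 20.1 and 7.7 FPKM. Marcks was lower in each Acot12-/- library, with a log2 difference of −1.53 ± 0.37 (SE, adjusted p = 0.0347) and of −2.08 (adjusted p = 0.00066) without replicate 2. Replicate 2 stood between the other Acot12-/- libraries and Acot12+/+, and the call was lost in 9 of the 12 fits. Snord17, a small nucleolar RNA, had 28.5, 37.7 and 8.15 FPKM in Acot12+/+ and 2.04, 3.31 and 4.41 FPKM in Acot12-/- kidneys. For Snord17 the groups lay apart, with a log2 difference of −2.40 ± 0.56 (SE, adjusted p = 0.0318). FPKM of so short a transcript are uncertain in libraries that select fragments by size. The Snord17 call was lost without Acot12+/+ CL replicate 1 or 2, Acot12+/+ UUO replicate 2 or Acot12-/- CL replicate 1. Mcm6, a subunit of the replicative helicase, was the 1 gene called among 18 of the cell cycle, beside 1.24% of all genes called higher. It had 13.3, 11 and 16.2 against 20.3, 25.1 and 24.6 FPKM. Mcm6 values did not overlap, at a log2 difference of 0.75 ± 0.17 (SE, adjusted p = 0.0251) and of 0.70 (adjusted p = 0.0156) without replicate 2. Its call was lost without Acot12+/+ replicate 1 or 2. Nuclear subunits of the respiratory chain (75 genes, median −0.06), tricarboxylic acid cycle enzymes (22, 0.31) and cytosolic ribosomal proteins (78, −0.31, a list added after the data had been seen) had no call in 6 libraries, and neither had 21 genes of branched-chain amino acid breakdown (0.14) or 17 of the unfolded protein response (0.06). Of 24 cholesterol genes Sc5d was called higher (0.78) and of 20 antioxidant genes Gsta2 was (1.39), beside 1.24% of all genes. Without replicate 2 the respiratory chain had 3 genes called higher, the tricarboxylic acid cycle 4 and the ribosome 1, where 12.9% of all genes were called higher, and without Acot12-/- replicate 3, 9 ribosomal protein genes were called lower. Nnt, which tells some C57BL/6 substrains apart, had 69.8, 64.3 and 68.3 FPKM in Acot12+/+ and 97, 109 and 86.3 FPKM in Acot12-/- kidneys and was expressed in all 6. Nnt values did not overlap and the gene was not called, with a log2 difference of 0.52 ± 0.16 (SE, adjusted p = 0.099).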

How the data were processed

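RNA was taken from kidney cortex, and directional libraries were made from total RNA with the NEBNext Ultra II kit. The authors deposited 1 table per library with FPKM of 23183 genes, and how these values were scaled between libraries is not given in the sources used here. The submitters' processing notes name the mm10 genome and edgeR without a role, and the aligner and counter are not given in the sources used here. No counts were analysed, and depth was estimated from the steps between low FPKM values. Intervals from counting are therefore not given.

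Genes with at least 1 FPKM in at least 3 of the 6 CL libraries were kept (12236), and 12 listed at 0 beside at least 10 FPKM in the same group, among them Kap, were left out. A gene could therefore pass through 1 group alone, the group where it was higher. Some genes are not reported here. Log2(FPKM + 1) was fitted with limma 3.58.1 (R 4.3.3) to the 4 groups of 12 libraries, with a variance trend and Benjamini-Hochberg adjustment over all genes tested. The code was tested on simulated data. The methods of the study name the service provider (E-Biogen) that trimmed, mapped and normalized the reads, and ExDEGA, DAVID and STRING for further analysis, without the test applied to these tables. Here limma was chosen. A called gene had an adjusted p under 0.05, and non-overlap was counted without a test. GC correction subtracted a loess curve (span 0.5) of each library against transcript GC content (12156 genes). Gene positions and GC content came from a GRCm38 annotation, in which 22148 symbols matched as written, 654 by an older symbol and 381 not at all.

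The labels do not say that replicates came from separate mice, so p-values measure the spread between these samples, which may be technical. Same-numbered CL and UUO libraries deviated together within each genotype (r = 0.14, 0.37 and 0.33 in Acot12+/+, 0.33, 0.19 and 0.33 in Acot12-/-). Differently numbered ones had r from −0.35 to 0.13 in Acot12+/+, close to the lowest same-numbered value, and from −0.19 to −0.07 in Acot12-/-. The number was taken to mark the 2 kidneys of 1 mouse. These correlations do not establish that, because UUO libraries from mice of different genotypes reached r = 0.5.

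The members and gene lists were chosen with earlier results of these data known. Named genes were the 10 largest rises and falls among called genes with a mean of at least 1 FPKM and no overlap, with and without Acot12-/- replicate 2, up to 4 genes per list by smallest p, the genes the study measured or cited and those within 1 Mb of Acot12. Other genes, most of them further members of the endothelial, fibroblast, macrophage, lysosome, transporter and podocyte lists and the genes with a difference between the kidneys, were chosen after their values were seen. Alternatives concerned the pseudocount, filters, scaling, variance model, GC content, blocks and single libraries left out. The combinations of GC correction with the CL libraries alone and, for the difference between kidneys, with replicate 2 left out were chosen after seeing the data.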

Additional observations from a re-analysis of the deposited data

Results flagged for a closer look

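For some genes the genotype difference in CL kidneys departed from that in UUO kidneys by a test of the difference itself. In all 12 libraries 18 genes passed, and without Acot12-/- CL replicate 2 the number was 962. No gene passed with equal library totals, with no filter, or when any of most other single libraries was left out. Fabp4 had the largest difference of effects among the 18, at 2.30 ± 0.33 on the log2 scale (SE, n = 3 libraries per group; adjusted p = 0.0285, limma), with a fall in CL kidneys and overlapping values in UUO kidneys. Of the 962, 533 had a genotype effect lower in CL than in UUO kidneys and 429 a higher one. With GC correction, 34 passed in 12 libraries and 588 without Acot12-/- CL replicate 2. The part of the GC trend of single libraries in this number was not tested further.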

How the results depend on the processing

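Acot12 kept its direction and its call under each alternative, with adjusted p from 0.000346 to 0.0109. No called difference of a named gene changed sign. The count of 568 fell to 5 with the CL libraries alone, 112 with these and GC correction, 237 at 5 FPKM or more, 351 with equal library totals and 253 where a 2-fold change was asked as well, and ran from 192 to 2885 with single libraries left out. The count of 2885 without Acot12-/- replicate 2 became 1357, 803, 2074, 1166 and 386 in the same order, 1240 with library weights and 1646 with GC correction, and ran from 1476 to 3183 (1476 without Acot12+/+ CL replicate 1 and 1849 without Acot12-/- CL replicate 3). The count of 18 for the difference between kidneys became 33 with size factors, 34 with GC correction and 588 with this and without Acot12-/- CL replicate 2. It was 0 by limma with no filter (1781 at an unadjusted p under 0.05) and 0 with equal totals (1114), where the median of this difference over all genes was −0.19, beside −0.03 as deposited. It ran from 0 to 962 with single libraries left out. The causes of these shifts were not tested.

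Replicate numbers shared across genotypes were taken as a label only, because the genotypes are different mice. Same-numbered CL libraries correlated at −0.15, −0.03 and 0.07. Same-numbered UUO libraries correlated at −0.33, 0.28 and 0.42, and differently numbered ones at −0.57 to 0.5. With the replicate block 63 genes were called in 6 libraries and 885 without replicate 2, and with the block and GC correction 130 and 671. With each mouse as a block the difference between kidneys was called for 96 genes.

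Depth of 11500000 to 14900000 fragments limits genes near 1 FPKM, and 3 libraries per group, 1 of them with a strong GC trend, limit changes under about 2-fold.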
